A study of Rattus norvegicus with 6 samples.

Results

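Expression of 10 endothelial and angiogenic genes was examined in diabetic and normal diaphragm: Kdr, Flt1, Tie1, Tek, Pecam1, Vegfa, Apln, Esm1, Cxcl12 and Ddah1. Every probe set that the platform annotation gives to exactly 1 of these genes was used. There were 15 such probe sets for 9 of the genes, out of 10411 genes with a probe set, and none for Tek, the second Tie receptor. Kdr, Flt1, Tie1, Pecam1 and Vegfa were chosen for what they are, and their difference between groups was tested. Apln, Esm1, Cxcl12 and Ddah1 were picked for their changes on these same arrays, so their signals are given as a description with no test. The muscle was the left costal hemidiaphragm of male Wistar rats, 3 injected with streptozotocin at 60 mg/kg in citrate buffer and 3 injected with buffer alone, all at 8 weeks of age. It was removed 4 weeks later after an overnight fast, without insulin treatment, and total RNA of each rat was hybridized to 1 Affymetrix RAE 230A array. Streptozotocin destroys the pancreatic beta cells, and the agent and the resulting diabetes cannot be told apart in this design.

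The capillary bed of skeletal muscle is lined by endothelial cells, which keep their growth and survival receptors at the surface. Vascular endothelial growth factor A (Vegfa), made largely by muscle fibres and other cells around the vessel, acts through the receptor Kdr, while Flt1 binds the same ligand and limits its supply. Tie1 and Tek are the receptors of the angiopoietin system, which stabilizes vessels, and Pecam1 is an adhesion molecule of endothelial junctions. Apelin (Apln) is a peptide of endothelium and fat that acts through the receptor Aplnr. Cxcl12 is a chemokine of stromal and endothelial cells, Esm1 is a proteoglycan secreted by activated endothelium at the growing tip of a vessel, and Ddah1 breaks down methylarginines, the natural inhibitors of nitric oxide synthase.

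The promoters of 4 genes are shown because these genes mark the opposite directions in the data: Kdr and Esm1 had higher signals in diabetic muscle, and Tie1 and Apln had lower ones. Each line is the 250 bases before the annotated start in RefSeq, build GRCr8, written 5′ to 3′ on the strand of the gene. The regions are chr14:32571813-32572062 on the plus strand for Kdr, chr5:137304982-137305231 on the minus strand for Tie1, chr2:46609003-46609252 on the plus strand for Esm1 and chrX:132091247-132091496 on the minus strand for Apln. Capitals mark matches, on either strand, to ACGTG or GCGTG, the core of the sites bound by hypoxia-inducible factors.
Kdr: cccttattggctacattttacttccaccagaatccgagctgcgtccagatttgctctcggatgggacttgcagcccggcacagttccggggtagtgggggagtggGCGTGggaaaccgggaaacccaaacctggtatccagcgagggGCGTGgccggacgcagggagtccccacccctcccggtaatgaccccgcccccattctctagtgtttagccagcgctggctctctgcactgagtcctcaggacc
Tie1: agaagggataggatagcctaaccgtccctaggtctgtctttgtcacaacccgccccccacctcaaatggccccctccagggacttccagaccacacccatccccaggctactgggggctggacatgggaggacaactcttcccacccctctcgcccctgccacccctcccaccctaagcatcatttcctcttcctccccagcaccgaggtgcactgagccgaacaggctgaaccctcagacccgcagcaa
Esm1: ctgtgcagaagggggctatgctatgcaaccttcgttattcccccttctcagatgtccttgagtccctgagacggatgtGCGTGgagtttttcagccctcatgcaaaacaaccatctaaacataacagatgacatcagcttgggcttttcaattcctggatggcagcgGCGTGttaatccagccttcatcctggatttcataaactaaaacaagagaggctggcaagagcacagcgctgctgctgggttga
Apln: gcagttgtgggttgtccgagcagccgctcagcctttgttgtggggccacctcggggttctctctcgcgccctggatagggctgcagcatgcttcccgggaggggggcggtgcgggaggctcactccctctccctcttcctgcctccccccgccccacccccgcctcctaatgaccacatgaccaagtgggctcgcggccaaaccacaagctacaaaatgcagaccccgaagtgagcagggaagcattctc
The Kdr and Esm1 windows each held 2 matches, and the Tie1 and Apln windows held 0. Of the members not printed, Cxcl12 and Ddah1, both with lower signals in diabetic muscle, held 1 match each, as did Flt1, which did not pass the test, and both Vegfa windows held 0. At least 1 match was present in 36.7% of all 33469 promoter windows of the same length, so presence in a window is common. Windows were found for 8 of the genes. Neither GTAAACA, a FoxO site, nor the paired ETS core GGAAGGAA occurred in any of them, against 3.21% and 3.23% of all windows. Letters in a window are a description and were not tested for binding.

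Signals are MAS 5.0 intensities, scaled by array, with array medians between 167.6 and 180.8. Brightness depends on the probe set, so signals are compared between rats and not between genes. On 1 array, diabetic replicate 3, the bacterial spike-in controls were brighter, at a median relative level of 1.96 against 0.833 to 0.889 on the other 5. The labelled tissue was borne out by the fibre genes, all 15 of which were above the signal filter, with Ckm, muscle creatine kinase, at means of 34029.3 in normal and 28997.7 in diabetic muscle. The limma test was run on 9519 probe sets with a mean signal above 105.8, and 3.30% of them were called higher and 3.48% lower in diabetic muscle at an adjusted p under 0.05. Of the 15 member probe sets, 12 were above this level. The groups did not overlap for 29.6% of all tested probe sets.

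**Figure D1:**
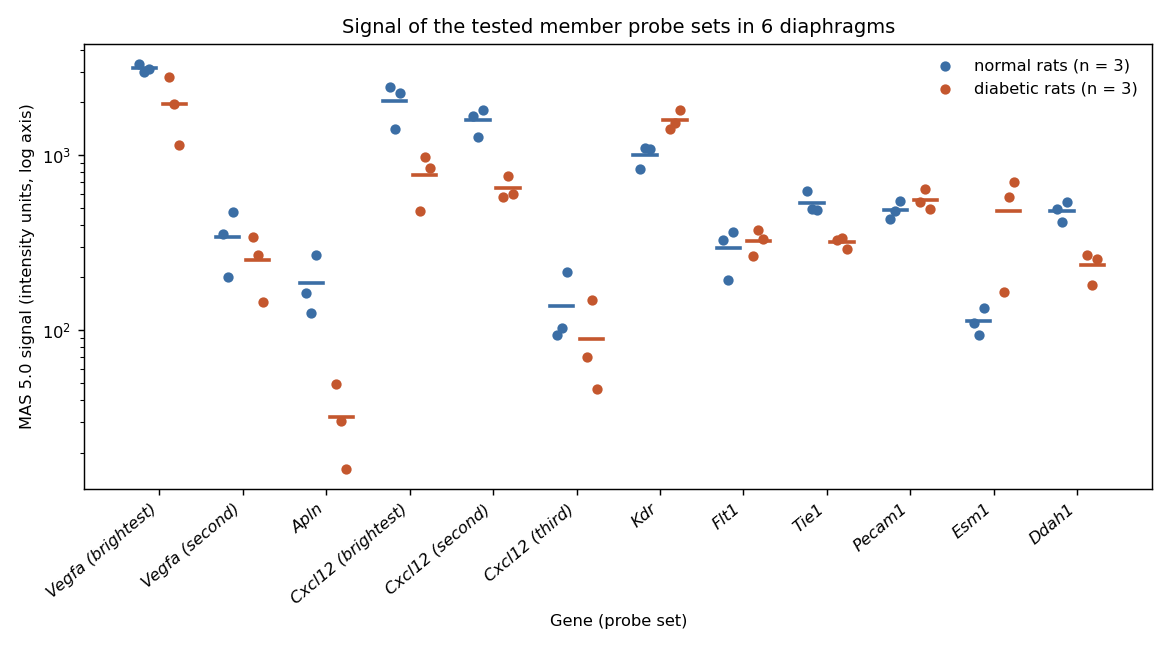
Signal (vertical log axis, intensity units) of the 12 tested member probe sets, with 1 point per rat and a bar at the mean of 3, normal rats in blue and diabetic rats in orange. For Apln the diabetic signals lie between 16.2 and 49.1, all below the normal signals, and for Kdr they lie between 1418.4 and 1800.7, all above.

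Among the ligands, Vegfa had a lower mean signal in diabetic diaphragm and did not pass the test. Its brighter probe set had signals of 3308.7, 2998.7 and 3120.1 in the normal muscles and 2790.4, 1962.6 and 1149.6 in the diabetic muscles. All 3 diabetic signals lay below the normal ones, and the diabetic muscles differed more among themselves. Mean signal was 3142.5 ± 156.2 (SD, n = 3) in the normal rats against 1967.5 ± 820.4 (SD, n = 3) in the diabetic rats, 1.6-fold lower (log2 change -0.77 ± 0.27 SE, 95% interval -1.36 to -0.17, limma adjusted p = 0.12). Without diabetic replicate 1 the brighter probe set passed (log2 fold change -1.06, adjusted p = 0.036 from limma), and without diabetic replicate 3 it was -0.42. The dimmer probe set overlapped between groups, with signals of 201.1 to 470.8 in normal and 144.0 to 340.3 in diabetic muscle (log2 fold change -0.45, 95% interval -1.25 to 0.35).

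Of the other ligands of the family, Vegfb and Vegfc were tested and did not pass. Vegfb, a ligand of Flt1, had signals of 1632.6, 1776.6 and 1966.5 in normal and 1472.4, 1206.0 and 1060.6 in diabetic muscle. The groups did not overlap, but the difference missed the threshold (log2 change -0.53 ± 0.17 SE, limma adjusted p = 0.086). Vegfc, which acts mainly on lymphatic endothelium, overlapped between groups (log2 change -0.39 ± 0.20 SE, limma adjusted p = 0.26). Pgf and Vegfd lay below the signal filter and overlapped between groups, at ratios of diabetic to normal mean signal of 0.985 and 1.17.

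Apelin showed the largest difference among the members. The brighter Apln probe set had signals of 162.9, 125.7 and 268.5 in the normal muscles and 49.1, 30.1 and 16.2 in the diabetic muscles. The groups were far apart, and the highest diabetic signal was less than the lowest normal one. Mean signal was 185.7 ± 74.1 (SD, n = 3) in the normal rats against 31.8 ± 16.5 (SD, n = 3) in the diabetic rats, a ratio of 5.84, which ranged from 4.54 to 8.02 with each array left out in turn. These signals are dim: the mean over the 6 arrays was 108.8, just above the filter, and the diabetic signals all lay below it, so the ratio is imprecise. The second Apln probe set was below the filter and did not share the difference, with signals of 74.4, 114.5 and 80.6 in normal and 79.0, 69.5 and 92.4 in diabetic muscle.

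Cxcl12 was lower on both of its brighter probe sets. The brightest had signals of 2438.5, 1412.0 and 2279.7 in normal and 478.7, 977.2 and 849.1 in diabetic muscle, a ratio of means of 2.66. The second had 1663.1, 1270.8 and 1799.9 in normal and 576.8, 764.2 and 596.5 in diabetic muscle, a ratio of 2.44. No diabetic signal reached a normal one on either, and diabetic replicate 1 was the lowest array on each. The third probe set was dim and overlapped between groups, at 94.2 to 215.3 in normal and 46.0 to 149.6 in diabetic muscle. Its ratio of 1.55 was 2.37 without diabetic replicate 2 and 1.12 without normal replicate 3.

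**Figure D2:**
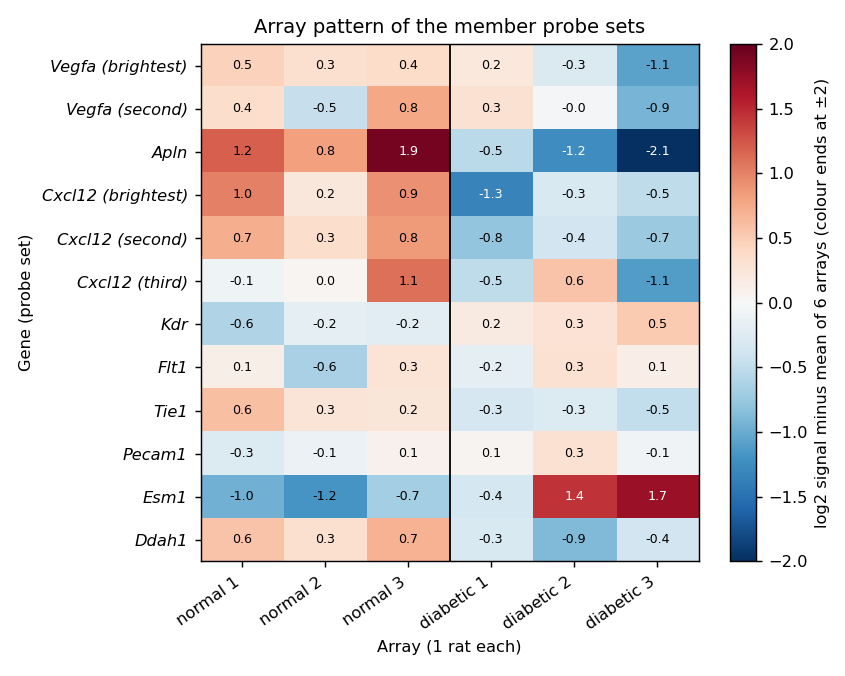
Log2 signal of each tested member probe set on each of the 6 arrays, minus the mean of that probe set over the arrays (colour and printed value; the line separates normal from diabetic arrays). Apln and Esm1 run in opposite directions, and diabetic replicate 3 has the lowest Apln and Vegfa and the highest Kdr and Esm1 values.

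The receptors differed in direction. Kdr, the main signalling receptor for Vegfa, was higher in diabetic diaphragm, and Tie1, the orphan receptor that modulates angiopoietin signalling, was lower. They were the 2 probe sets called among 6 tested probe sets of the members chosen by identity, set beside 6.78% called over all probe sets in either direction. The groups did not overlap for 3 of those 6, namely Kdr, Tie1 and the brighter Vegfa probe set, beside 29.6% of all probe sets tested. A count this small cannot be told apart from that share.

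Kdr had signals of 828.2, 1095.9 and 1083.1 in normal and 1418.4, 1524.8 and 1800.7 in diabetic muscle. Every diabetic muscle was above every normal one, and diabetic replicate 3 was the highest. Mean signal was 1002.4 ± 151.0 (SD, n = 3) in the normal rats against 1581.3 ± 197.3 (SD, n = 3) in the diabetic rats, 1.58-fold higher (log2 change 0.66 ± 0.17 SE, 95% interval 0.28 to 1.04, limma adjusted p = 0.046). Tie1 had signals of 623.7, 489.2 and 482.8 in normal and 325.5, 336.9 and 290.7 in diabetic muscle. The diabetic signals were closely grouped and all below the normal ones. Mean signal was 531.9 ± 79.6 (SD, n = 3) in the normal rats against 317.7 ± 24.1 (SD, n = 3) in the diabetic rats, 1.67-fold lower (log2 change -0.74 ± 0.17 SE, 95% interval -1.12 to -0.36, limma adjusted p = 0.031). Both calls lie near the threshold: with each array left out in turn, Kdr missed it in 6 of 6 cases (log2 change 0.53 to 0.74, limma adjusted p up to 0.15), as did Tie1 (log2 change -0.80 to -0.62, limma adjusted p up to 0.11).

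Flt1, the decoy receptor of the family, had overlapping groups on all 3 of its probe sets. The brightest had signals of 327.2, 193.3 and 364.0 in normal and 265.2, 372.9 and 330.0 in diabetic muscle (log2 fold change 0.17, 95% interval -0.39 to 0.73, adjusted p = 0.73 from limma). The remaining pair lay below the filter, at mean signals of 100.2 and 87.0 in normal and 104.2 and 95.8 in diabetic muscle. Nrp1, a co-receptor that presents Vegfa to Kdr, had 2 probe sets. Its brighter probe set had signals of 925.1, 1306.8 and 1038.1 in normal and 770.2, 801.5 and 513.9 in diabetic muscle (log2 change -0.66 ± 0.21 SE, limma adjusted p = 0.090). The dimmer one had 705.6, 676.0 and 1009.1 in normal and 461.6, 627.0 and 551.2 in diabetic muscle (log2 change -0.53 ± 0.20 SE, limma adjusted p = 0.14). Neither overlapped between groups and neither passed. Flt4 and Nrp2, receptors of the lymphatic ligands, were below the filter. Of the 6 tested genes of the wider list of Vegf ligands and receptors, 1 was higher, 0 were lower and 5 did not pass. The higher gene was Kdr itself, and Vegfa and Flt1 also belong to this list. Without these members, 3 genes were tested and 0 were called. Median log2 fold changes were -0.46 for the 6 and -0.53 for the 3, against 0.01 over all 7080 genes tested. The share called in either direction over all genes tested was 7.01%, and counts this small cannot be told apart from it.

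Neither receptor of the chemokine showed a difference that passed, and the apelin receptor was not tested. Cxcr4, the signalling receptor of Cxcl12, overlapped between groups on all 3 probe sets, with log2 fold changes of 0.58, 0.28 and 0.22 (adjusted p = 0.25, 0.62 and 0.69 from limma). Ackr3, which scavenges Cxcl12, had signals of 1547.6 to 2306.1 in normal and 1566.9 to 2045.2 in diabetic muscle (log2 change -0.06 ± 0.19 SE, limma adjusted p = 0.89). Aplnr, the apelin receptor, was below the filter, at 42.0, 45.7 and 65.1 in normal and 68.1, 57.9 and 92.1 in diabetic muscle. The lowest diabetic Aplnr signal was thus below the highest normal one.

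**Figure D3:**
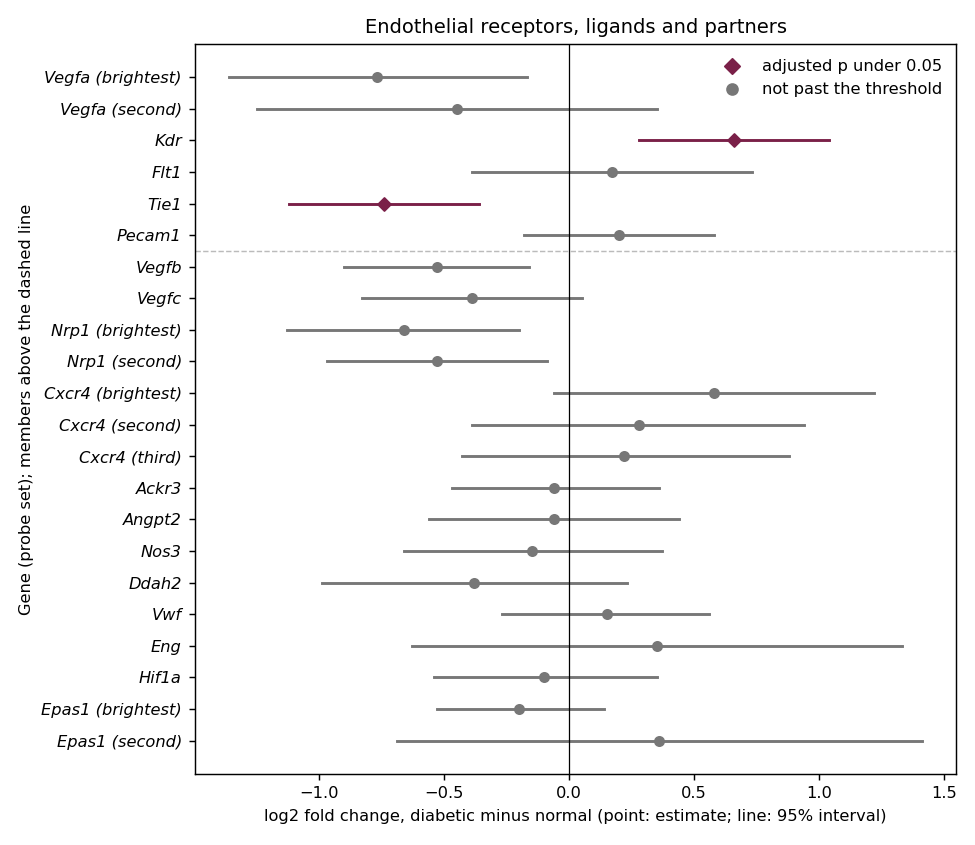
Log2 fold change, diabetic minus normal, of the tested probe sets of the members chosen by identity (above the dashed line) and of their partners, with 95% intervals from 3 rats per group. Diamonds mark an adjusted p under 0.05, which Kdr at 0.66 and Tie1 at -0.74 reached.

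Pecam1, the junctional marker of all endothelium, did not differ beyond the spread between rats. Its signals were 429.3, 476.5 and 547.9 in normal and 537.5, 638.7 and 494.3 in diabetic muscle (log2 change 0.20 ± 0.17 SE, 95% interval -0.18 to 0.58, limma adjusted p = 0.53). Most endothelial markers gave similar values. Of 32 tested genes of a list of endothelial identity genes, 2 were higher, 1 was lower and 29 did not pass, and the median log2 fold change was 0.08. Over all genes tested 3.46% were higher, 3.55% lower and 7.01% called in either direction. These shares are the background for the counts of every list below. The summed signal of the 32 genes was 31630 to 38684 in normal and 37695 to 41396 in diabetic muscle. Such sums weigh bright genes most. Cd36 alone had signals of 3633.2 to 8161.2 in normal and 9239.2 to 10263.6 in diabetic muscle. Vwf, a clotting factor stored by endothelium, differed by 0.15 ± 0.19 (SE) on the log2 scale and Eng, a co-receptor for transforming growth factor beta, by 0.35 ± 0.44 (SE). Cdh5, the junctional cadherin, had no probe set. In whole muscle RNA, fewer cells of a type and less RNA per cell cannot be told apart.

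The genes called in this list were Kdr, Tie1 and Gpihbp1, the protein that anchors lipoprotein lipase to the capillary wall. Gpihbp1 had signals of 329.1, 255.6 and 412.5 in normal and 587.6, 852.2 and 801.3 in diabetic muscle. All diabetic signals exceeded the normal ones, by 2.25-fold on average (log2 change 1.18 ± 0.22 SE, limma adjusted p = 0.012). This call was kept in 6 of 6 cases with 1 array left out (highest adjusted p = 0.048 from limma).

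Esm1 was the only member picked for a rise. It had signals of 109.5, 94.3 and 133.5 in normal and 165.9, 578.5 and 702.8 in diabetic muscle. The groups did not overlap, but diabetic replicate 1 was close to the normal muscles while the other two were several times higher. Mean signal was 112.4 ± 19.8 (SD, n = 3) in the normal rats against 482.4 ± 281.1 (SD, n = 3) in the diabetic rats, a ratio of 4.29. That ratio was 3.31 without diabetic replicate 3 and 5.70 without diabetic replicate 1. The normal signals lie close to the filter level of 105.8, so the ratio is imprecise.

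Set against Pecam1 on the same array, the members spread in both directions, and more probe sets fell than rose. Esm1, Apln, Cxcl12 and Ddah1 were picked for their changes, so their part of this spread was set by that choice. The mean log2 ratio, diabetic minus normal, was -0.97 and -0.65 for Vegfa and -1.63, -1.48 and -0.91 for Cxcl12. It was -1.25 for Ddah1 and -0.03 for Flt1. Relative to the normal mean, the log2 ratio of Esm1 to Pecam1 was 0.42, 1.97 and 2.62 in the 3 diabetic muscles, and that of Kdr to Pecam1 was 0.36, 0.21 and 0.82. The ratio of Tie1 to Pecam1 was -0.86, -1.05 and -0.90, and that of Apln to Pecam1 was -2.0, -2.96 and -3.48. Normal muscles lay between -0.10 and 0.16 for Kdr and between -0.31 and 0.41 for Tie1. The ratios of Kdr and Tie1 to Pecam1 thus lay outside the values of the 3 normal muscles, in opposite directions, in all 3 diabetic muscles. Both genes had been called on these same arrays, so this is no further test of them. A ratio within an array shows unequal change and not which gene changed.

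Ddah1 was lower in every diabetic muscle. Its signals were 492.4, 417.2 and 538.5 in normal and 269.5, 180.0 and 254.8 in diabetic muscle. The groups were well separated, with means of 482.7 ± 61.2 (SD, n = 3) and 234.8 ± 48.0 (SD, n = 3), a ratio of 2.06. Ddah2, the second enzyme that breaks down methylarginines, overlapped between groups, at 213.6 to 369.1 in normal and 156.1 to 282.2 in diabetic muscle (log2 change -0.38 ± 0.28 SE, limma adjusted p = 0.44). Nos3, the endothelial nitric oxide synthase, had signals of 123.4 to 165.4 in normal and 122.2 to 148.4 in diabetic muscle (log2 change -0.15 ± 0.23 SE, limma adjusted p = 0.75). Besides Ddah1, 10 genes of a nitric oxide and methylarginine list were tested and 0 were called, with a median log2 fold change of 0.00. Over all genes tested 7.01% were called, so 0 of 10 is near that share. The list had 10 further genes below the signal filter, among them Nos1, Nos2, Arg1 and Arg2, so its coverage is partial. Arg2 had signals of 35.7, 31.8 and 70.6 in normal and 105.1, 117.0 and 130.7 in diabetic muscle, a ratio of 2.55. Agxt2 also did not overlap between groups, at a ratio of 1.49, and the remaining genes below the filter overlapped. None of these was tested.

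Around the angiopoietin receptors, Ptprb, an endothelial phosphatase that restrains Tek, rose from signals of 1898.9, 1664.8 and 1343.3 in normal to 3060.0, 2338.9 and 2631.8 in diabetic muscle (log2 change 0.72 ± 0.17 SE, limma adjusted p = 0.038). Every diabetic signal was above the normal ones. With each array left out in turn it passed in 1 of 6 cases (highest adjusted p = 0.11 from limma). Angpt2, the antagonist ligand, overlapped between groups (log2 change -0.06 ± 0.23 SE, limma adjusted p = 0.91), and Angpt1 had no probe set. Of the 5 tested genes of this pathway, 1 was higher and 1, Tie1, was lower, beside 7.01% called in either direction over all genes tested.

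Of 19 tested genes of other angiogenic growth factors and regulators, 4 were higher, 1 was lower and 14 did not pass, with a median log2 fold change of 0.27. The 4 were Ang, a secreted ribonuclease that promotes vessel growth (log2 fold change 0.96), the transcriptional inhibitors Id3 (0.92) and Id1 (0.82), and Ccn2, a matricellular factor (0.79). The gene that fell was Mmp2, a gelatinase (log2 fold change -0.65). Each of these 5 passed in 1 of 6 cases with an array left out, with a highest adjusted p between 0.10 and 0.14 from limma. The 6 tested Notch pathway genes held 0 calls, beside 7.01% called over all genes tested, and had a median log2 fold change of 0.11. A list this small cannot be told apart from that share.

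Of 12 tested inhibitors of vessel growth, 2 were lower, 1 was higher and 9 did not pass, with a median log2 fold change of -0.23. Col15a1, a basement membrane collagen whose fragment inhibits vessel growth, fell from signals of 1948.4, 2107.8 and 2469.3 in normal to 698.0, 455.5 and 340.7 in diabetic muscle (log2 change -2.18 ± 0.24 SE, limma adjusted p = 0.0011), and passed in 6 of 6 cases with an array left out. Serpinf1, a secreted inhibitor also made by fibroblasts and fat, fell from 2894.9, 3283.4 and 3528.9 to 2009.0, 2147.1 and 1424.2 (log2 fold change -0.82, adjusted p = 0.025 from limma), and passed in 1 of 6. Adamts1, a protease that binds Vegfa, rose from 234.4, 407.3 and 279.1 to 622.2, 528.9 and 1107.7 (log2 fold change 1.26, adjusted p = 0.029 from limma). It passed in 2 of 6 cases, without normal replicate 2 or diabetic replicate 2, and was 0.94 without diabetic replicate 3 (limma adjusted p = 0.073).

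Genes of the hypoxia response went in both directions. Hif1a, the oxygen-regulated factor, had signals of 876.7 to 1367.6 in normal and 822.5 to 1102.5 in diabetic muscle (log2 change -0.10 ± 0.20 SE, limma adjusted p = 0.81). Epas1, its endothelial relative, had signals of 4063.8 to 4479.2 in normal and 3178.6 to 4262.2 in diabetic muscle on the brighter probe set (log2 change -0.20 ± 0.15 SE, limma adjusted p = 0.48). Of 19 tested genes, 2 were higher, 2 were lower and 15 did not pass, with a median log2 fold change of 0.02. Ndrg1, a stress-induced gene (log2 fold change 0.99), and Bnip3, a mitophagy receptor (0.61), were higher, and the glycolytic enzymes Ldha (-1.02) and Pgk1 (-0.81) were lower. Ndrg1, Ldha and the brighter Pgk1 probe set passed in 6 of 6 cases with an array left out, and Bnip3 in 0 of 6.

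**Figure D4:**
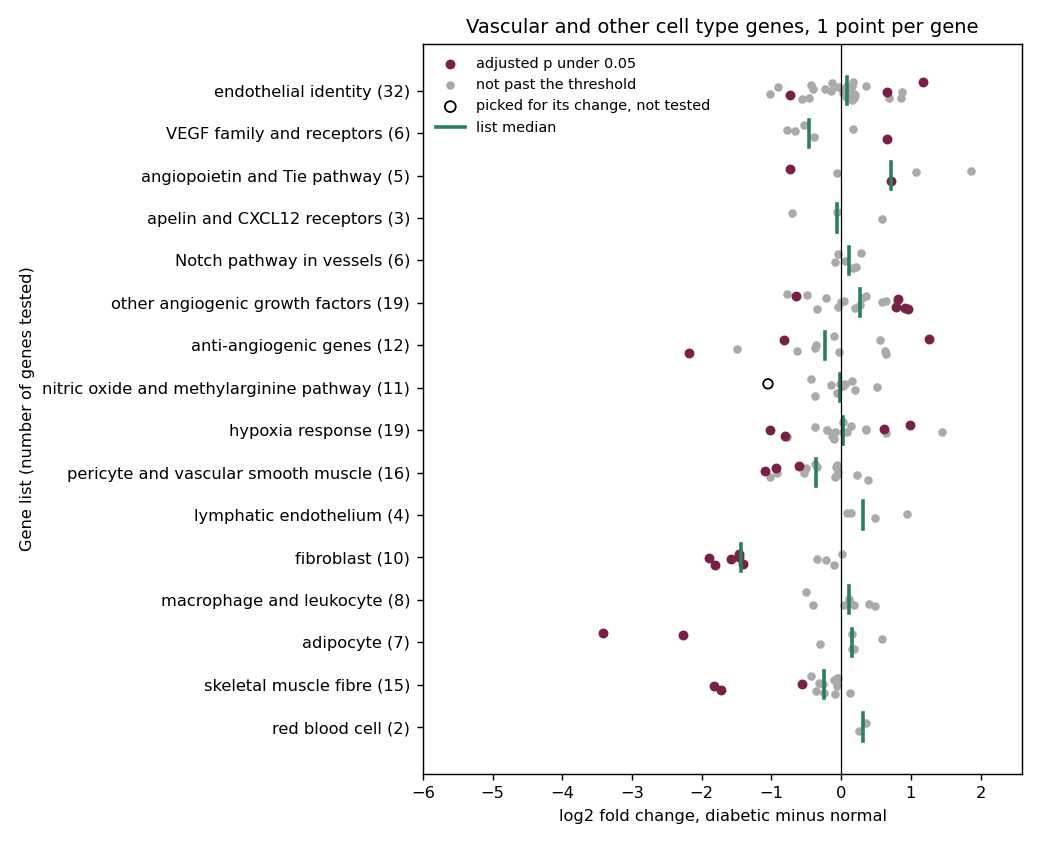
Log2 fold change, diabetic minus normal, of each tested gene of the vascular and cell type lists, with 1 point per gene (its probe set of highest mean signal), called genes in dark red, the list median as a green bar and Ddah1, picked for its change, as an open circle. The median of the 32 endothelial identity genes is 0.08, that of the 16 pericyte and smooth muscle genes -0.36 and that of the 10 fibroblast genes -1.44.

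Markers of the cells around the endothelium were also counted. Of 16 tested pericyte and vascular smooth muscle genes, 0 were higher, 3 were lower and 13 did not pass. Their median log2 fold change was -0.36, with 14 negative values. Of the 15 muscle fibre genes, 14 also had negative values, with a median of -0.24, against 0.01 over all genes tested. Rgs5, a signalling regulator that marks pericytes, had signals of 842.0, 689.6 and 616.1 in normal and 382.8, 393.1 and 341.9 in diabetic muscle (log2 change -0.93 ± 0.17 SE, limma adjusted p = 0.011), and passed in 6 of 6 cases with an array left out. Smtn and Acta2, contractile genes of smooth muscle, fell by 1.09 and by 0.61 on the log2 scale (both adjusted p = 0.049 from limma), and passed in 1 and 0 of 6 cases. The summed signal of these 16 genes was 17626 to 23622 in normal and 16537 to 20145 in diabetic muscle. Much of this sum was Des, also a muscle fibre gene, at 8060.6 to 13299.4 in normal and 9308.0 to 11368.3 in diabetic muscle. Their part in the values of Tie1, Vegfa and Cxcl12 was not tested.

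Fibroblast markers showed the largest shift of any list. Of 10 tested, 6 were lower, 0 higher and the other 4 not past the threshold, with a median log2 fold change of -1.44 and summed signals of 51961 to 56070 in normal and 25253 to 27139 in diabetic muscle. Several of these genes had been selected by the study on these arrays, so the count is not independent evidence of direction. Examples were the fibrillar collagens Col3a1 (log2 fold change -1.90), Col1a1 (-1.81) and Col1a2 (-1.58) and the microfibril gene Fbn1 (-1.47). Fibroblasts are a known source of Cxcl12, and the part of these cells in its value was not tested.

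Fat cells are a known source of apelin. Of 7 tested adipocyte genes, 2 were lower, 0 higher and the other 5 not past the threshold, with a median log2 fold change of 0.15. Summed signals were 18298 to 23959 in normal and 20618 to 24809 in diabetic muscle. Most of this sum was Lpl, at 11405.5 to 15033.4 in normal and 13285.2 to 17256.7 in diabetic muscle. The pair that fell were Rbp4, a retinol carrier, and Nnat, an endoplasmic reticulum protein, which also occur outside fat. Rbp4 had signals of 202.1, 292.2 and 354.2 in normal and 51.7, 38.2 and 8.6 in diabetic muscle (limma adjusted p = 0.0092), and Nnat had 423.9, 352.8 and 368.9 in normal and 82.1, 92.8 and 64.6 in diabetic muscle (limma adjusted p = 0.00061). All diabetic signals of both lay under the filter level of 105.8, so the size of the change is imprecise, and the log2 change of Rbp4 was -3.42 with all arrays and -2.63 without diabetic replicate 3. The 5 genes not past the threshold were Lpl, Fabp4, Cfd, Lipe and Pparg, and all overlapped between groups. Cfd, Lipe and Pparg had means over the 6 arrays of 1483.9, 454.7 and 149.6. Of the list genes not tested, Lep was near the bottom of the signal range at 5.4 to 10.5 on the 6 arrays. Plin1 was below the filter at 25.6 to 81.5, and Adipoq had no probe set. Macrophage and leukocyte genes (8 tested), lymphatic genes (4) and red blood cell genes (2) held 0 calls, with median log2 fold changes of 0.11, 0.31 and 0.31. So few genes cannot be told apart from the 7.01% called over all genes tested. Of 15 muscle fibre genes, 3 were lower: Myh4, the fastest myosin (-1.82), Pvalb, a calcium buffer of fast fibres (-1.72), and Mb, the oxygen carrier (-0.56). Their part in the Vegfa value was not tested.

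The genes whose array pattern was most like that of Apln, by the root-mean-square difference of mean-centred log2 signals over the 6 arrays, were Mss51 (0.37), Col15a1 (0.37), Slc16a3 (0.42), Neu2 (0.45) and Cpa1 (0.46). For Esm1 they were Ankrd1 (0.52), Slc35f5 (0.56), F2 (0.58), Omd (0.58) and Oser1 (0.58). The measure follows the difference between groups that chose Apln and Esm1, and it is a description over 6 arrays.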

How the data were processed

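Total RNA of the left costal hemidiaphragm was measured in 3 normal and 3 diabetic rats, with 1 Affymetrix RAE 230A array for each animal. The values deposited by the authors are MAS 5.0 signals, that is, the linear intensity of each probe set after scaling of the array (2% trimmed mean 500.2 on every array). The MAS 5.0 settings were not stated, and present calls were not used here. Intensities below 1 (136 in all) were raised to 1 before taking log2. After removal of 57 control probe sets and of probe sets whose mean signal did not exceed the 40th percentile (105.8), 9519 were tested with limma 3.58.1 (R 4.3.3; lmFit, then eBayes with a trend; Benjamini-Hochberg adjustment; threshold 0.05). The study's methods used the BAM software, which was not run. With 4 residual degrees of freedom, the number of arrays limits the precision. A fold is the mean signal of one group over that of the other. The test was tried on simulated data.

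The platform annotation gave 1 gene for 12783 probe sets, several for 312 and none for 2771, and symbols were updated through RefSeq gene identifiers. List genes used their brightest probe set. The genes named are the members, a fixed set of receptors and partners, up to 4 called genes of largest change per list with those against its majority, and the 5 genes most like Apln and Esm1. Outside this rule, and chosen after their values were seen, are Ckm, Des, Lep, Plin1, Cfd, Fabp4, Lipe, Pparg and the genes of the closing observations. The same holds for other genes named as lacking a probe set or lying below the filter. The members and lists were chosen with earlier results of these data known. Alternatives were quantile or median scaling, offsets of 16 and 64, no trend, no filter or one at the 60th percentile, averaging of a gene's probe sets, a block for replicate number, omission of single arrays, and differences of log2 means.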

Additional observations from a re-analysis of the deposited data

How the results depend on the processing

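With 3 rats a group, calls near the threshold were often lost when any single array was left out, and they changed with the settings. With each array left out in turn, 133 to 226 probe sets were higher (314 with all arrays, fewest without diabetic replicate 3) and 179 to 235 lower (331), and over the vascular and cell type lists, Ddah1 left out, 2 to 5 genes were higher (10) and 14 to 16 lower (20). Log2 fold changes then ranged from 0.53 to 0.74 for Kdr, from -0.80 to -0.62 for Tie1, from -1.06 to -0.42 for the brighter Vegfa probe set and from -0.11 to 0.35 for Flt1, whose sign turned without normal replicate 2. Kdr (0.66) did not pass with no filter, no trend or the replicate block (adjusted p = 0.065, 0.077 and 0.069), nor Tie1 (-0.74) with no filter or the block (adjusted p = 0.055 and 0.068 from limma). List genes higher numbered 6 with arrays scaled to the same median, 2 with no filter, 3 with no trend and 4 with the block. Probe sets higher numbered 200 with no filter. With the replicate number as a block 162 probe sets were higher and 170 lower. Same-numbered arrays had correlations of deviations of 0.098, -0.195 and -0.068, which gave no sign that the numbers pair the rats. A pairing that leaves no trace in these deviations was not excluded. Leaving out an array or adding the block leaves fewer residual degrees of freedom, and no filter means more probe sets tested. How much each contributed to these differences was not tested.

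Quantile or median scaling, an offset of 16 or 64 and the filter at the 60th percentile left Kdr and Tie1 past the threshold. The ratios of the 6 tested probe sets of Apln, Cxcl12, Esm1 and Ddah1 kept their direction under every alternative that gave a value. The brighter Apln and the dimmest Cxcl12 probe sets gave none with the filter at the 60th percentile. Offsets, filters, trend and block cannot change a ratio of mean signals. Besides scaling, omission of single arrays and differences of log2 means could have turned it only for the dimmest Cxcl12 probe set. On the rest the groups did not overlap, so those alternatives could not turn it. These genes were picked for this difference, so the kept direction is a description. The dimmer Apln probe set, below the filter, had a ratio of diabetic to normal signal of 0.894, which turned to 1.04 without normal replicate 2. Signs turned with 1 array left out for these genes, which did not pass: Cxcr4 (-0.04 to 0.53 and -0.10 to 0.40 on its dimmer probe sets), Ackr3 (-0.17 to 0.11; 0.02 without diabetic replicate 3), Vwf (-0.03 to 0.26), Eng (-0.28 to 0.70), Angpt2 (-0.29 to 0.09; 0.02 and 0.03 without normal replicate 2 and diabetic replicate 3), Hif1a (-0.23 to 0.09; 0.04 without diabetic replicate 3) and the dimmer Epas1 probe set (-0.07 to 0.84).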

Other observations

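The genes below were chosen after their values were seen, and none passed the test. Cd36, a fatty acid transporter of capillaries and fibres, had signals of 7261.6, 8161.2 and 3633.2 in normal and 9239.2, 10263.6 and 9599.6 in diabetic muscle (log2 change 0.69 ± 0.26 SE, limma adjusted p = 0.14). Angptl4, an inhibitor of lipoprotein lipase, had signals of 2399.8, 2063.0 and 253.5 in normal and 3902.2, 2724.0 and 5688.1 in diabetic muscle (log2 change 1.86 ± 0.69 SE, limma adjusted p = 0.13). In both genes the groups did not overlap, and normal replicate 3 was the lowest array. Without it the log2 change was 0.33 for Cd36 and 0.82 for Angptl4 (limma adjusted p = 0.28 and 0.12). Lpl, lipoprotein lipase itself, overlapped between groups (log2 change 0.15 ± 0.16 SE, limma adjusted p = 0.61).

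Mcam, an adhesion molecule of pericytes and endothelium, had signals of 316.4, 327.0 and 521.1 in normal and 223.4, 280.4 and 103.7 in diabetic muscle (log2 change -1.02 ± 0.35 SE, limma adjusted p = 0.11). Foxo1, a transcription factor that insulin signalling holds out of the nucleus, had signals of 152.6, 144.6 and 133.1 in normal and 232.1, 203.9 and 577.8 in diabetic muscle (log2 change 1.07 ± 0.34 SE, limma adjusted p = 0.093). Neither overlapped between groups, and diabetic replicate 3 held the extreme value in each. Without it the log2 change was -0.59 for Mcam and 0.60 for Foxo1 (limma adjusted p = 0.24 and 0.19).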
